A study of Mus musculus with 61 samples.

Results

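Mx1 and Mx2 are the mouse myxovirus resistance genes, a pair of neighbouring paralogs on chromosome 16. They were taken by gene symbol and make up 2 of the 18754 genes in the deposited liver count table. The study sequenced liver mRNA of the 8 founder strains of the Diversity Outbred mouse population, whose diet was rich in fat and sugar and is labelled as 45 percent fat. A count column was matched to 60 of the 61 labelled samples. They came from Cast (7 libraries), PWK (8), WSB (8), NZO (8), NOD (8), AJ (6), strain-129 (8, labelled by the number alone) and B6 (7). No unexposed or chow-fed group was used here, so each strain was set against B6, the strain of the mouse reference genome. The labels give neither the sex nor the age of the mice.

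Mx proteins are large GTPases of the dynamin superfamily that assemble into rings and block the replication of RNA viruses. Interferons bound to their receptors switch on Mx genes together with other interferon-stimulated genes, and cells at rest carry little Mx RNA. In mice, Mx1 protein acts in the nucleus against influenza-like viruses and Mx2 protein acts in the cytoplasm. Many classical inbred strains are known to carry broken alleles of both genes, whereas wild-derived mice often carry intact ones.

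The deposited gene table (build GRCm38) places Mx1 (ENSMUSG00000000386) at chr16:97447035-97462907 on the minus strand. It places Mx2 (ENSMUSG00000023341) at chr16:97535308-97560900 on the plus strand, 72.4 kb away. GENCODE M21 annotates Mx1 as protein coding and Mx2 as a polymorphic pseudogene, while RefSeq on the same build lists both as transcribed pseudogenes. Stretches of coding sequence are letter for letter the same in the GENCODE transcripts Mx1-201 and Mx2-201. The longest pair is printed here because a read that falls inside them cannot be placed on 1 of the genes by sequence alone. The first is 140 bases long and joins exons 5 and 6 of both transcripts (chr16:97455218-97455617, minus strand, in Mx1; chr16:97546351-97546757, plus strand, in Mx2). The second is 79 bases long and lies in exon 3 of both (chr16:97457341-97457419, minus strand, in Mx1; chr16:97544541-97544619, plus strand, in Mx2).
Shared by exons 5 and 6: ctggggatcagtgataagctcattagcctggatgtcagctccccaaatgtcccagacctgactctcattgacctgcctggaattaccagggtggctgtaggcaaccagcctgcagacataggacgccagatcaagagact
Shared by exon 3: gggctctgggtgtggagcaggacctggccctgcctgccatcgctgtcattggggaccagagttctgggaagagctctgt
Of all distinct 75-base windows over the annotated transcripts, 73 were common to both genes, which was 1.71% of those of Mx1 and 2.01% of those of Mx2. The longest shared stretch being 140 bases, no 150-base window was common. The deposited counts are estimates that need not be whole, and the pair carries a trace of shared reads. Mx1 had a non-whole estimate in 19 of 60 libraries, Mx2 had one in the same 19, and in 19 of those the Mx1 and Mx2 estimates added up to a whole number within 0.001. These libraries included 8 of 8 from PWK, 4 of 7 from Cast and 3 of 7 from B6.

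Library totals ranged from 19.98 to 69.17 M reads, with a median of 30.42 M. Xist, the RNA that coats the inactive X chromosome of female cells, was either at most 8.9 CPM or at least 646 CPM in a library, and every strain held libraries of both kinds. Summed markers of Kupffer cells and other macrophages averaged 206 CPM in Cast, 308 in PWK, 240 in WSB, 525 in NZO, 269 in NOD, 348 in AJ and 257 in strain-129, against 585 in B6. The sums ranged from 102 to 266 CPM in Cast, 182 to 446 in PWK, 152 to 360 in WSB, 259 to 1052 in NZO, 171 to 408 in NOD, 251 to 535 in AJ and 175 to 399 in strain-129 mice, against 334 to 867 in B6. Against B6, 7 to 11 of these 11 markers were lower in each strain but NZO, where 0 passed (2 were lower at an unadjusted p under 0.05), and Marco in PWK and Folr2 in WSB averaged under 0.1 CPM. Of all genes, 10.3 to 28.9% were lower in a strain. CPM here means counts per M reads after TMM scaling of the library sizes. Summed hepatocyte markers reached at least 23570 CPM in every library. In whole liver, fewer cells of a type and less RNA per cell cannot be told apart. The labels number the samples but do not say how animals were assigned, so p-values measure the spread between these libraries.

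Mx1 RNA was scarce in most strains and stood high in NZO and PWK. Mx2 RNA was abundant in Cast and PWK and next to absent in NZO. Both genes differed among the 8 strains in edgeR's quasi-likelihood test (adjusted p = 1.12e-18 for Mx1 and 1.56e-26 for Mx2), as did 89.8% of the 16165 genes tested. A difference among these strains was thus the rule for liver genes.

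In NZO, Mx1 was found at 5.8 CPM in the lowest library, 13.4 CPM in the median and 15.3 CPM in the highest, with a mean of 11.3 ± 4.09 CPM (SD, n = 8). In PWK it was at 1.7, 5.41 and 7.74 CPM, with a mean of 5.14 ± 1.71 CPM (n = 8). B6 libraries held 1.16, 1.63 and 2.93 CPM, averaging 1.75 ± 0.628 CPM (n = 7). Every NZO library therefore lay above every B6 library, and PWK overlapped B6 through 1 low library, number 9. Cast held 0.399, 1.03 and 4.76 CPM (mean 1.53 ± 1.48, n = 7). AJ held 0.446, 0.845 and 1.2 CPM (mean 0.85 ± 0.279, n = 6). NOD held 0.0808, 0.737 and 1.55 CPM (mean 0.734 ± 0.498, n = 8). These 3 strains reached into the B6 range. The strain-129 libraries held 0.222, 0.601 and 1.07 CPM (mean 0.609 ± 0.296, n = 8). WSB held 0, 0.211 and 0.369 CPM (mean 0.195 ± 0.149, n = 8), with no estimated read in 2 of its 8 libraries, which allows up to 0.0921 and 0.105 CPM (3 reads). All strain-129 and WSB libraries lay under the lowest of B6. The WSB values rest on 0 to 11 reads a library.

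Against B6, Mx1 was 6.44-fold higher in NZO (log2 fold change 2.69, SE 0.42, edgeR adjusted p = 1.21e-06), where 11.5% of all genes tested were higher. Neutrophil markers were called higher in NZO as well (3 of 3 tested). Their sum was 0.982 to 1341 CPM in NZO, against 0.584 to 4.79 CPM in B6. The NZO mean of 170 CPM (n = 8) rests almost wholly on the highest library. The part of these markers in the Mx1 level was not tested. With any 1 library left out, Mx1 in NZO had a log2 fold change of 2.6 to 2.86. Mx1 was 2.92-fold higher in PWK (1.55, SE 0.40, adjusted p = 0.00145), where 20.1% of genes were higher. In WSB, where 23.3% of genes were lower, Mx1 fell by 3.14 on the log2 scale (SE 0.48, edgeR adjusted p = 4.07e-07). It fell by 1.52 in strain-129 (SE 0.42, edgeR adjusted p = 0.0059), where 12.9% of genes were lower. In NOD it fell by 1.23 (SE 0.42, edgeR adjusted p = 0.0256), with 13.0% of genes lower. That NOD call was lost when NOD library 5, NOD library 8 or B6 library 2 was left out, with adjusted p up to 0.0762. Mx1 in Cast did not pass the test (log2 fold change -0.19, 95% interval -1.01 to 0.63, adjusted p = 0.72; -0.82 and adjusted p = 0.0852 without Cast library 5), nor did it in AJ (-1.04, interval -1.93 to -0.16, adjusted p = 0.102).

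Mx2 was at 14.3 CPM in the lowest Cast library, 39.9 CPM in the median and 290 CPM in the highest, with a mean of 73.9 ± 98.7 CPM (SD, n = 7). Without library 5 the Cast mean was 37.9 ± 27.9 CPM (n = 6, computed after seeing the data). PWK held 39.5, 60.2 and 92.5 CPM, averaging 63.2 ± 20.1 CPM (n = 8). B6 held 3.05, 4.79 and 7.06 CPM, averaging 4.73 ± 1.38 CPM (n = 7). Every Cast and every PWK library exceeded the highest B6 library, and the Cast libraries spread more widely than any other strain's. AJ had 6.28, 6.93 and 13.7 CPM (mean 8.14 ± 2.82, n = 6). NOD had 4.08, 5.12 and 6.06 CPM (mean 5.15 ± 0.654, n = 8). WSB had 3.16, 4.09 and 8.94 CPM (mean 4.76 ± 1.92, n = 8), and strain-129 had 3.26, 4.87 and 5.45 CPM (mean 4.54 ± 0.791, n = 8). All 4 of these strains overlapped B6.

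In NZO, Mx2 had no estimated read in 4 of 8 libraries, which allows up to 0.0508 to 0.138 CPM in a library (3 reads), and at most 2 in the others. That made 5 reads among 293.2 M, or 0.0181 CPM (exact 95% Poisson interval 0.00587 to 0.0422), against 1021 reads and 4.75 CPM in the pooled B6 libraries. By these counts Mx2 was 263 times lower in NZO than in B6 (interval 112 to 811, for counting error only). The edgeR test called it lower in NZO (adjusted p = 3.04e-14), as it did 10.4% of genes. The same NZO livers carried the highest Mx1 of the 8 strains. Mx1 exceeded Mx2 in 8 of 8 NZO libraries and in 0 libraries of the other 7 strains. Between the other strains the proportion also varied. Median Mx1 came to 2.77% of Mx2 in Cast (1.64 to 5.77%) and 8.4% in PWK, against 38.6% in B6 (24.4 to 41.5%), and the Cast and B6 ranges did not overlap. All PWK, WSB, AJ and strain-129 libraries lay under the B6 range as well (highest 13.2, 10.7, 19.1 and 21.5%). NOD reached into it (up to 26.2%). The Cast range overlapped those of PWK, WSB, AJ, strain-129 and NOD, while the B6 range overlapped that of NOD only.

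**Figure D1:**
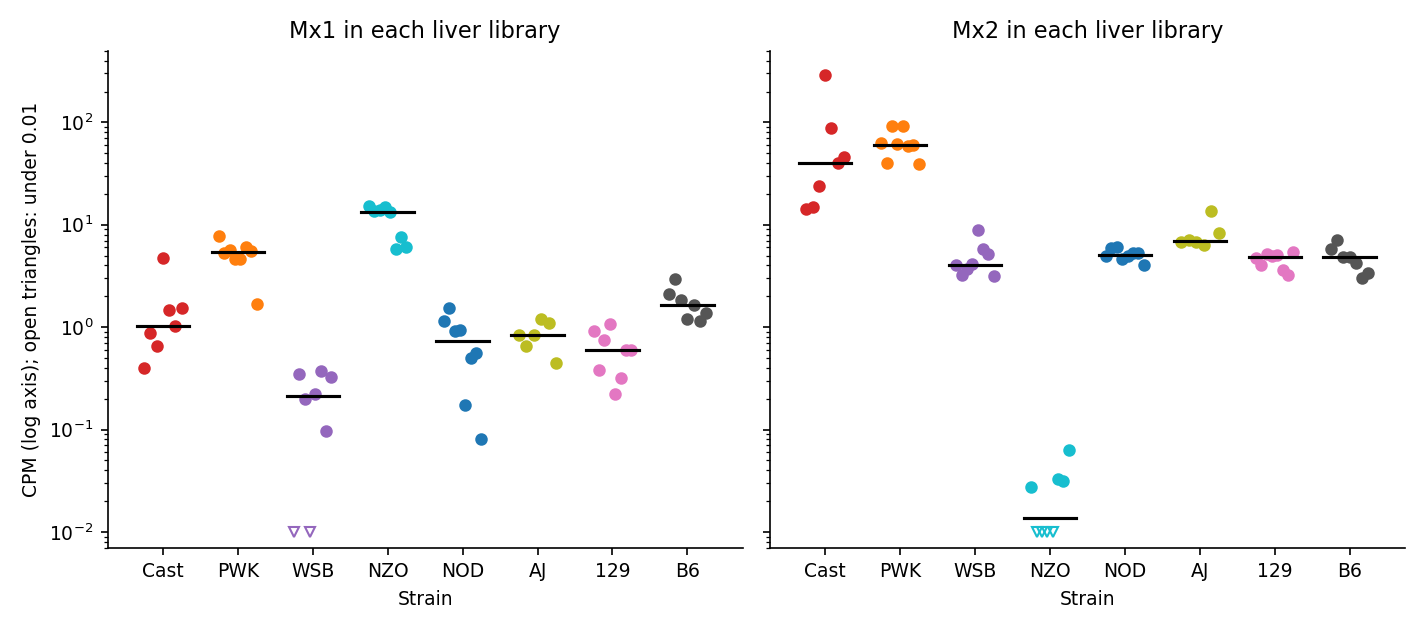
Mx1 (left) and Mx2 (right) in CPM on a log axis for each of the 60 liver libraries, by strain; points are libraries, bars are strain medians, and open triangles mark values under 0.01 CPM. Mx1 stands highest in NZO (5.8 to 15.3 CPM), where Mx2 is at most 0.0632 CPM, and Mx2 stands highest in Cast and PWK.

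Mx2 was 15.6-fold higher in Cast than in B6 (log2 fold change 3.96, SE 0.39, edgeR adjusted p = 1.51e-12), with 28.2% of all genes higher in Cast. Without Cast library 5 the log2 fold change was 3.0. In PWK it was 13.3-fold higher (3.74, SE 0.39, edgeR adjusted p = 6.7e-12). The comparison did not pass in WSB (0.01, 95% interval -0.69 to 0.70, adjusted p = 0.991), NOD (0.12, interval -0.57 to 0.82, adjusted p = 0.837), AJ (0.78, interval 0.05 to 1.51, adjusted p = 0.147) or strain-129 (-0.06, interval -0.75 to 0.63, adjusted p = 0.934). Leaving out Cast library 5, which enters the shared estimate of spread, brought AJ past the threshold (adjusted p = 0.0321). All 7 comparisons share the B6 libraries, so the values of different strains are given side by side only.

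Per kilobase of annotated exon (3785 bases for Mx1 and 3614 for Mx2), the mean level of Mx2 was 20.5 CPM per kb in Cast and 17.5 in PWK, against 1.31 in B6. Mx1 reached 2.99 CPM per kb in NZO and 1.36 in PWK, against 0.463 in B6. Ordered by mean log2 CPM, Mx1 ran NZO, PWK, B6, Cast, AJ, NOD, strain-129, WSB. Of its 7 steps, 3 passed an exact two-sided permutation test with adjustment over all 14 steps. They were the step from NZO to PWK (adjusted p = 0.00653), that from PWK to B6 (0.00508) and that from strain-129 to WSB (0.00725). Mx2 ran PWK, Cast, AJ, NOD, B6, WSB, strain-129, NZO, and 3 of its steps passed the exact permutation test: Cast to AJ (adjusted p = 0.00653), AJ to NOD (0.00233) and strain-129 to NZO (0.00218). The remaining 8 steps, those between neighbours in the run from B6 to strain-129 for Mx1, from PWK to Cast and from NOD to strain-129 for Mx2, did not pass (adjusted p of 0.493 to 0.979). Steps were tested between neighbours only, and Mx1 in strain-129 and NOD was called lower than in B6 by edgeR, as given above.

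Most other interferon-stimulated genes were lower than in B6 in every strain but PWK, AJ and NZO, also where an Mx gene was higher. A list of 51 tested genes, with Mx1 and Mx2 left out, included the ubiquitin-like Isg15, the RNA-binding Ifit genes, the oligoadenylate synthetases and Usp18, which takes Isg15 off proteins. In Cast, 45 of 51 were lower than in B6 and 1 was higher (28.9% of all genes were lower), with a median log2 fold change of -1.53, while Mx2 was 15.6-fold higher. In PWK, 24 were lower and 2 higher (23.0% of all genes were lower), median -0.53, while both Mx genes were higher. In NZO, 3 were lower and 1 higher (10.4% of all genes were lower and 11.5% higher, both above the list's share), median -0.08, with Mx1 higher and Mx2 near 0. In WSB, 43 were lower and 0 higher (23.3% of all genes were lower and 20.9% higher), median -1.19, and Mx1 was lower too. In NOD, 41 were lower and 0 higher (13.0% of all genes were lower and 11.4% higher), median -1.02. In AJ, 24 were lower and 0 higher (10.3% of all genes were lower and 8.13% higher), median -0.78. In strain-129, 44 were lower and 0 higher (12.9% of all genes were lower and 9.58% higher), median -1.02. In WSB, NOD, AJ and strain-129, where edgeR called 0 of the list higher, DESeq2 called 0 as well, and 1 gene in WSB and 0 in the other 3 strains were higher at an unadjusted p under 0.05. The median over all genes lay between -0.02 and 0.02 in each comparison. Macrophage markers were also lower in the 6 strains other than NZO. Of 10 lymphocyte markers, 9 were lower in Cast, 5 in PWK, 9 in WSB (and 1 higher), 3 in NOD, 4 in AJ and 7 in strain-129, and in NZO 0 were called by edgeR (2 at an unadjusted p under 0.05). Their summed level was 0.285 to 10.3 CPM in Cast, 2.21 to 5.12 in PWK, 1.06 to 10.1 in WSB, 2.0 to 13.7 in NZO, 2.54 to 8.77 in NOD, 1.76 to 4.38 in AJ and 1.83 to 3.71 in strain-129, against 4.81 to 7.47 CPM in B6. In Cast, Cd3e and Cd8a averaged under 0.1 CPM. Of 6 plasmacytoid dendritic cell markers, 1 of which, Bst2, is also in the interferon-stimulated list, 5 were lower in Cast, 3 in WSB, 2 in NOD, 4 in AJ and 4 in strain-129. In PWK 0 were lower and 1 was higher (Klk1, log2 fold change 2.51, edgeR adjusted p = 4.33e-05), where 20.1% of all genes were higher. In NZO 0 were called in either direction, and 0 at an unadjusted p under 0.05. Beside the lymphocyte and dendritic cell counts, 10.3 to 28.9% of all genes were lower in a strain. The dendritic cell markers summed to 33.4 to 85.4 CPM in Cast, 68.9 to 99.2 in PWK, 82.9 to 106 in WSB, 61.3 to 99.8 in NZO, 64.3 to 81.5 in NOD, 53.8 to 91.6 in AJ and 42.1 to 68.9 in strain-129, against 70.8 to 105 CPM in B6. The part of these cell types in the values of the list and of the Mx genes was not tested.

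**Figure D2:**
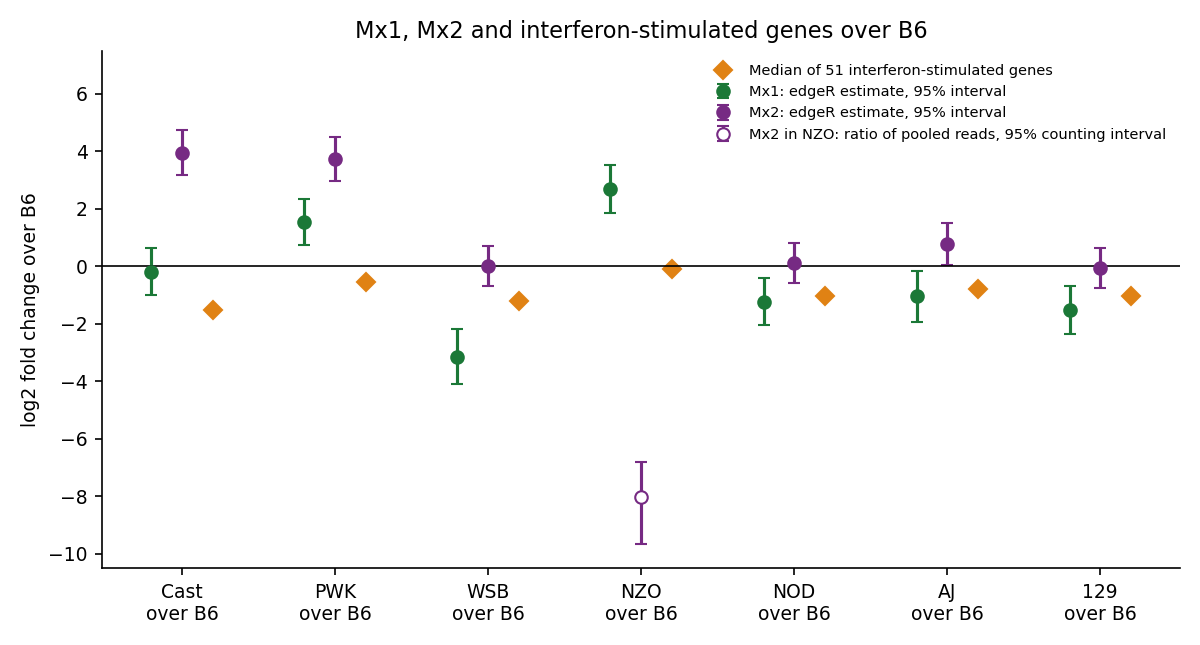
Log2 fold change over B6 of Mx1 and Mx2 (edgeR estimates with 95% intervals) and the median log2 fold change of 51 interferon-stimulated genes, for 7 strains; the open circle is the NZO to B6 ratio of pooled Mx2 reads with its counting interval. Mx2 is high in Cast and PWK and Mx1 in PWK and NZO, while the list medians lie between -1.53 and -0.08.

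Among the genes that moved most clearly, Irf7, the transcription factor that amplifies interferon production, averaged 3.4 ± 2.8 CPM in Cast (n = 7), against 35.2 ± 4.81 CPM in B6 (SD, n = 7). In Cast it fell by 3.37 on the log2 scale (SE 0.32, edgeR adjusted p = 2.36e-13), in the strain with the widest spread of Mx2. Irf7 averaged 37.6 ± 12.5 CPM in PWK and 35.3 ± 9.97 CPM in NZO, close to the B6 mean. Isg15 averaged 0.518 ± 0.602 CPM in Cast, 1.37 ± 0.507 in PWK and 5 ± 1.64 in NZO, against 6 ± 2.14 in B6. Usp18 averaged 1.52 ± 1.75 CPM in Cast and 8.54 ± 3.16 in NZO, against 9.37 ± 2.2 in B6. Of the 51 listed genes, 25 had their highest strain mean in B6, 13 in NZO, 9 in PWK and 0 in Cast, while 31 had their lowest in Cast. The same counts were not made over all genes, so they describe the list only. In the list of receptor and signalling genes, 16 of 19 were lower in Cast, 10 in PWK, 11 in WSB, 1 in NZO, 9 in NOD, 2 in AJ and 9 in strain-129, each against B6, and at most 2 were higher in a strain. Of all genes, 28.9% were lower in Cast, 23.0% in PWK, 23.3% in WSB, 10.4% in NZO, 13.0% in NOD, 10.3% in AJ and 12.9% in strain-129, so the counts in NZO and AJ were near or under that share. In PWK the most clearly changed listed genes included Ifi27l2a (log2 fold change -7.82) and Lgals3bp (1.98). In NZO the single higher gene was Slfn5 (1.01, edgeR adjusted p = 7.06e-06). Of 10 other dynamin superfamily genes, 6 were higher in Cast, where 28.2% of all genes were. The Cast genes included the mitochondrial fusion GTPase Mfn1 (0.50, SE 0.07) and the endoplasmic reticulum GTPase Atl2 (1.04, SE 0.15). In each of the other strains at most 1 of the 10 was higher and at most 1 lower, beside 8.13 to 20.9% of all genes higher and 10.3 to 23.3% lower.

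Within PWK, the libraries with more interferon-stimulated RNA carried more Mx1, and within Cast 1 library was high for both. The level of the list in a library was taken as a score, the mean log2 CPM of its 51 genes. In NZO, NOD and B6 the scores fell into 2 sets, each of 2 or more libraries, with a gap of at least 40% of the range. No correlation is therefore given for these scores, and the same held for Mx2 in PWK and Mx1 in WSB. A gap that set 1 library apart was not counted. In NZO, 5 libraries had scores of 3.74 to 3.93 and Mx1 of 13.3 to 15.3 CPM, and the other 3 had scores of 2.93 to 3.33 and Mx1 of 5.8 to 7.62 CPM. The NZO set with the higher scores held all 4 libraries with high Xist (1318 to 1421 CPM) and library 5 (Xist at 0.193 CPM). The set with the lower scores had Xist at 0.695 to 1.6 CPM. The parts of Xist and of the score in the Mx1 level were not tested. Among the remaining strains Mx1 rose with the score in PWK (Pearson r = 0.98, exact permutation adjusted p = 0.00645 over 20 relations; Spearman rho = 0.95, adjusted p = 0.0114; n = 8). Leaving out the 2 libraries farthest from the median score left r = 0.85. In Cast r was 0.90 (exact permutation adjusted p = 0.0278; rho = 0.86, adjusted p = 0.0595; n = 7) but 0.33 without the 2 farthest libraries, so it rests on those. In AJ r was 0.79 (exact permutation adjusted p = 0.114; rho = 0.89, adjusted p = 0.0741; n = 6). In strain-129 it was 0.71 (exact permutation adjusted p = 0.114; rho = 0.71, adjusted p = 0.105; n = 8). Without the 2 farthest libraries, r of Mx1 with the score was 0.93 in AJ and 0.82 in strain-129. The strain-129 scores were 2.79 to 3.04 at high Xist and 2.21 to 2.46 at low Xist. For Mx2 the relation had r = 0.89 in Cast (exact permutation adjusted p = 0.0278; rho = 0.86, adjusted p = 0.0595; 0.50 without the 2 farthest) and -0.46 in WSB (exact permutation adjusted p = 0.33; rho = -0.57, adjusted p = 0.233). It had r = -0.25 in AJ (exact permutation adjusted p = 0.705; rho = -0.43, adjusted p = 0.493; 0.56 without the 2 farthest) and 0.41 in strain-129 (exact permutation adjusted p = 0.348; rho = 0.31, adjusted p = 0.513). Mx1 and Mx2 went together in Cast (r = 0.94, exact permutation adjusted p = 0.0185, rho = 0.93, adjusted p = 0.0337, and r = 0.78 without the 2 farthest). The 4 Cast libraries with the most Mx2 (39.9 to 290 CPM) were those with non-whole estimates of both genes. The part of reads shared by the genes in this relation and in the Cast Mx1 level was not tested. In B6 they had r = 0.84 (exact permutation adjusted p = 0.0456; rho = 0.79, adjusted p = 0.096; n = 7), and 0.53 without the 2 farthest. The pair did not pass in NOD (r = 0.66, exact permutation adjusted p = 0.126, rho = 0.36, adjusted p = 0.487). Nor did it in AJ (r = 0.12, exact permutation adjusted p = 0.849, rho = -0.37, adjusted p = 0.523) or strain-129 (r = 0.27, exact permutation adjusted p = 0.573, rho = 0.10, adjusted p = 0.84). Without the 2 farthest libraries, r of the pair was 0.2 in NOD, 0.79 in AJ and 0.42 in strain-129.

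**Figure D3:**
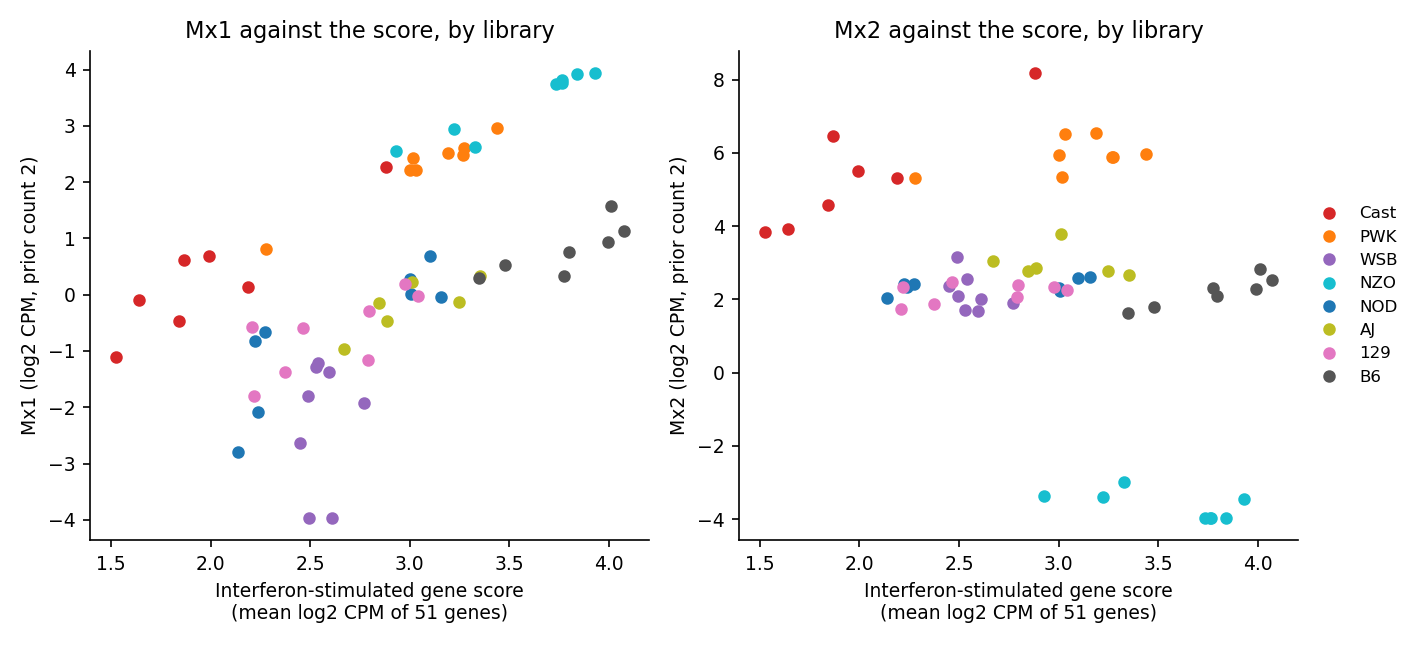
Mx1 (left) and Mx2 (right) in log2 CPM against the interferon-stimulated gene score, the mean log2 CPM of 51 genes, with 1 point per library coloured by strain. At scores near 3.7 to 3.9, NZO libraries lie above B6 libraries for Mx1 and far under them for Mx2.

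Both genes moved with Xist differently from strain to strain. In edgeR's model with a slope on log2 Xist in each strain, added after seeing the data, the slopes differed among the 8 strains for Mx2 (adjusted p = 4.27e-06) and for Mx1 (adjusted p = 0.00866), as for 19.9% of all genes. In Cast, the 3 libraries with Xist at 809 to 992 CPM had Mx2 at 14.3, 15 and 23.7 CPM. The 4 Cast libraries with Xist at 0.659 to 3.94 CPM had Mx2 at 290, 88.5, 39.9 and 45.8 CPM, and the ranges did not overlap. The interferon-stimulated gene score was 1.52 to 1.84 at high Xist and 1.87 to 2.88 at low Xist, ranges that nearly touched. The widest gap among the Cast scores lay elsewhere, between 2.19 and 2.88, with library 5 alone above it. From the lowest to the highest Xist of Cast, the fitted Mx2 level fell by 3.2 on the log2 scale (SE 0.36, edgeR adjusted p = 3.64e-09), and 22.3% of genes had a called slope in Cast. That Mx2 slope stayed past the threshold with each Cast and NOD library left out in turn (adjusted p at most 7.02e-06). Mx1 fell by 2.19 over the same range (SE 0.56, edgeR adjusted p = 0.00295), a call that was lost without Cast library 5 (adjusted p = 0.152). So was the difference among strains for Mx1 (adjusted p = 0.116).

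In NOD the direction was the other way for Mx1. The 4 NOD libraries with Xist at 1056 to 1307 CPM held 0.909, 0.943, 1.14 and 1.55 CPM of Mx1, and the 4 with Xist at 0.868 to 4.06 CPM held 0.0808, 0.173, 0.503 and 0.565 CPM, with no overlap. The fitted difference over the NOD range of Xist was 2.02 log2 units (SE 0.60, edgeR adjusted p = 0.021; 10.7% of genes called in NOD). It did not pass without NOD library 2, 5 or 8 (adjusted p = 0.0976 at most). The set of NOD libraries with scores of 3.0 to 3.16 was the set with high Xist. Mx2 in NOD differed over that range by 0.15 (SE 0.35, adjusted p = 0.846). In the other 6 strains no Mx slope passed, although that of Mx2 in WSB did without Cast library 5 (edgeR adjusted p = 0.0325). A lack of overlap by Xist was still not particular to Cast and NOD. In WSB, Mx2 was at 3.16 to 4 CPM at high Xist and 4.18 to 8.94 CPM at low Xist. In AJ it was at 6.28 to 7.13 CPM against 8.26 to 13.7 CPM, and in B6 at 4.79 to 7.06 CPM against 3.05 to 4.2 CPM. Mx1 in NZO was at 13.6 to 15.3 CPM at high Xist and 5.8 to 13.3 CPM at low Xist. Called slopes made up 10.2% of genes in PWK, 10.1% in WSB, 7.15% in NZO, 0.897% in AJ, 7.37% in strain-129 and 5.78% in B6. With 1 slope for all strains, 34.9% of genes were called, Mx2 among them (-0.059 log2 units per log2 unit of Xist, SE 0.02, edgeR adjusted p = 0.017) and Mx1 not (0.043, SE 0.022, adjusted p = 0.128). With Xist as a covariate every call of Mx1 and Mx2 against B6 was as without it.

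**Figure D4:**
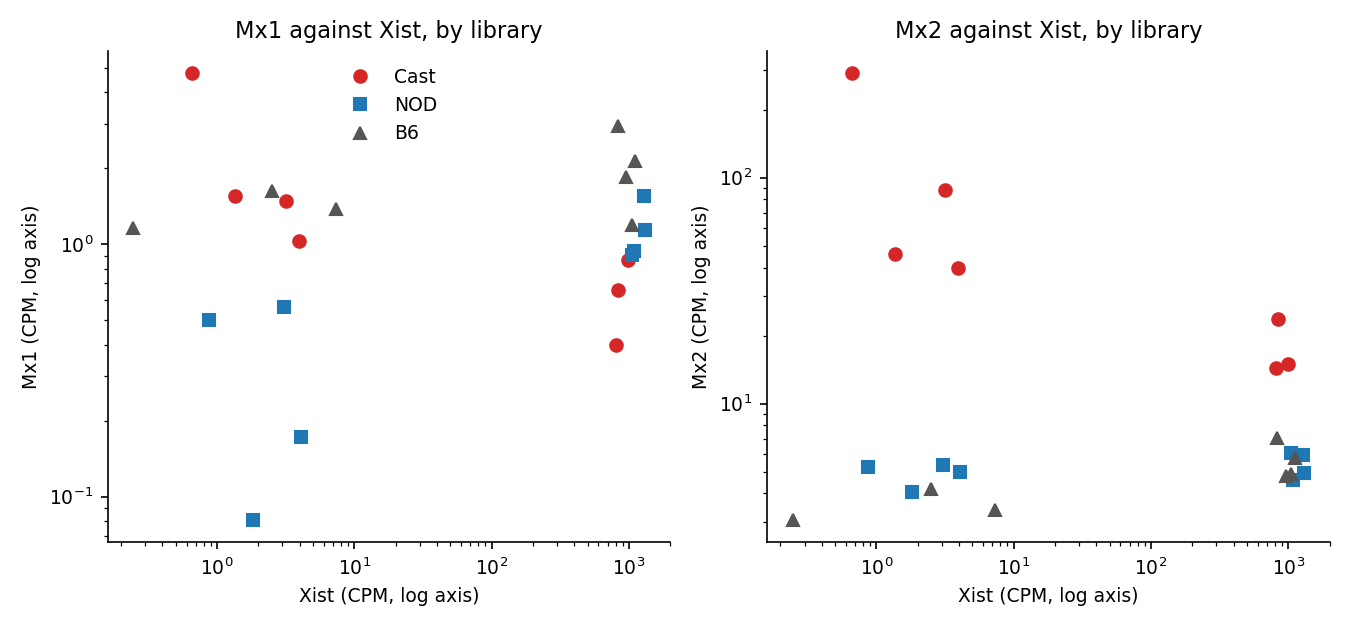
Mx1 (left) and Mx2 (right) against Xist, both in CPM on log axes, with 1 point per library of Cast, NOD and B6. In Cast the 4 libraries with Xist under 10 CPM carry Mx2 at 39.9 to 290 CPM, above the 3 with high Xist (14.3 to 23.7 CPM), and in NOD the libraries with high Xist carry more Mx1.

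Genes whose log2 CPM was most like that of Mx1 or Mx2 were ranked among protein-coding genes averaging at least 1 CPM, as a description over 60 libraries that share strain and depth. Over all libraries the 5 most like Mx1 were Tm7sf3 (r = 0.831), Zc3h12d (0.83), Pop4 (0.81), Slc26a2 (0.807) and Ppm1h (0.801), none of them in the interferon-stimulated list. After each strain's mean was taken out they were Usp18 (r = 0.744), Xaf1 (0.74), Ifit1 (0.736), Ifit3b (0.732) and Cmpk2 (0.727), all 5 in the list. The list's median r with Mx1 was then 0.547, beside 0.004 over all genes. For Mx2 the most alike over all libraries were Pfas (r = 0.905), Fam234b (0.848), Igfbp2 (0.846), Clk2 (0.813) and Gart (0.805). Pfas and Gart encode enzymes of purine synthesis. With strain means taken out they were Sumo2 (r = 0.788), Pfkl (0.774), Rrbp1 (0.741), Ttll1 (0.736) and Impdh2 (0.73), with 0 of 5 in the list. The SD of log2 Mx2 was 1.54 in Cast and 0.18 to 0.5 in the other strains. Correlations of Mx2 with strain means taken out therefore rest mostly on the Cast libraries. The list's median r with Mx2 was 0.307 after strain means were removed, beside 0.025 over all genes, and -0.305 over all libraries.

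Of 8 genes within 500 kb, 7 were tested. Against B6, 4 were higher and 1 lower in Cast, 3 were higher in WSB, 2 in NOD, 1 in AJ and 2 in strain-129 mice, and 1 was lower in PWK and 1 in NZO. Of all genes, 28.2% were higher in Cast, 20.9% in WSB, 11.4% in NOD, 8.13% in AJ and 9.58% in strain-129, and 23.0% were lower in PWK and 10.4% in NZO, so the single calls in PWK, NZO and AJ were near or under that share. Tmprss2, a membrane serine protease gene that lies next to Mx2, averaged 19.5 ± 15.9 CPM in Cast, 2.28 ± 1.57 in PWK and 29.4 ± 6.8 in WSB, against 5.28 ± 1.98 CPM in B6. It was higher in Cast by 1.89 and in WSB by 2.48 log2 units and lower in PWK (log2 fold change -1.19, SE 0.38, edgeR adjusted p = 0.00902), in which Mx2 was 13.3-fold higher. In NZO, where Mx2 was near 0, Tmprss2 averaged 4.63 ± 3.55 CPM and did not pass (log2 fold change -0.18, SE 0.37, adjusted p = 0.779). Bace2, a membrane aspartyl protease gene on the other side of Mx1, was higher in Cast by 1.77 (SE 0.18, edgeR adjusted p = 3.62e-12). It was lower in NZO (-0.81, SE 0.17, edgeR adjusted p = 0.000337), the strain with the highest Mx1.

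**Figure D5:**
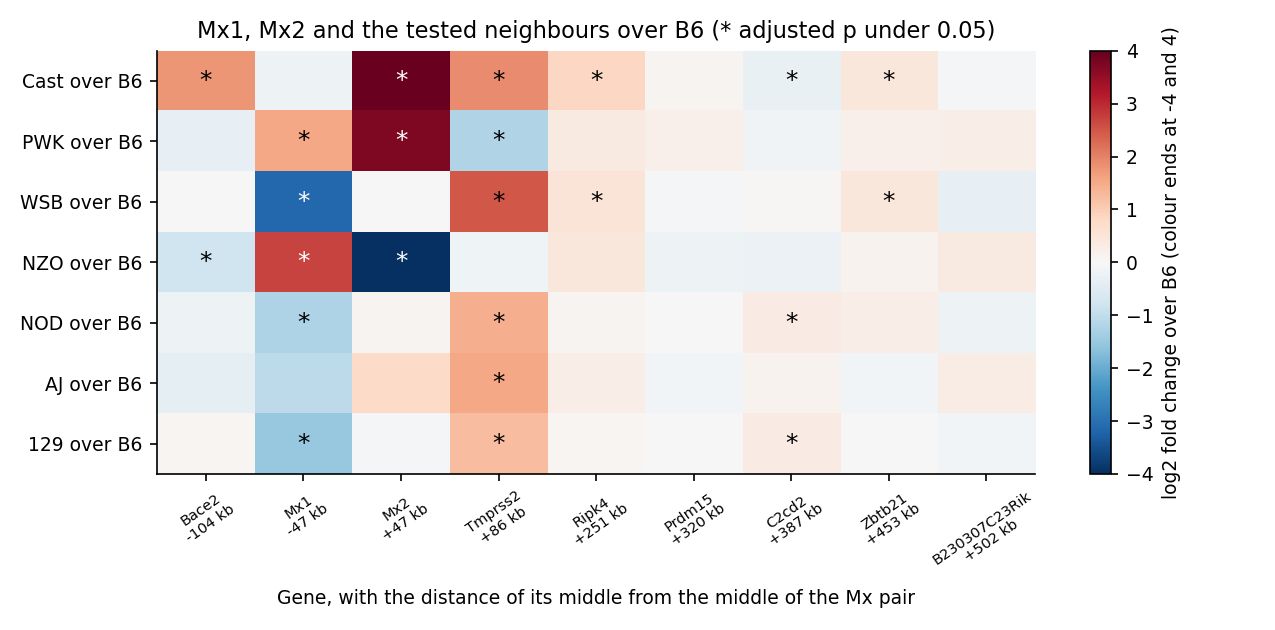
Log2 fold change over B6 (colour, ending at -4 and 4) of Mx1, Mx2 and the 7 tested neighbouring genes, in order along the chromosome with the distance of each gene's middle from the middle of the pair; stars mark adjusted p under 0.05. In PWK, Mx2 is higher and Tmprss2 lower, and in NZO Mx1 is higher and Bace2 lower.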

How the data were processed

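Libraries were made from polyadenylated liver RNA, per the labels' protocols. The authors deposited a table of estimated counts per gene, which need not be whole, and a table of the same genes transformed to a log2 scale. The submitters' processing notes name GRCm38 and DESeq2, and which aligner was used, how long the reads were and whether strand was counted is not given in the sources used here. Positions came from the gene table that the authors deposited. The estimated counts were not all whole, although whole counts had been assumed, and were therefore rounded. Columns were matched to samples by name; 1 column that matched no sample was not used, and 1 sample had no column.

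Counts were fitted with edgeR 4.0.16 in R 4.3.3: TMM scaling, filterByExpr by strain, 1 quasi-likelihood model of all 60 libraries with strain as the only factor, and Benjamini-Hochberg adjustment over the 16165 genes tested within each comparison, with a threshold of 0.05. Standard errors were derived as |log2 fold change| over the root of the F statistic. Log2 CPM used a prior count of 2. Levels of neighbours in the order and relations within strains used exact permutation tests. Alternatives used limma 3.58.1 on the deposited log2 values and DESeq2 1.42.0 on the counts. The fits were tested on simulated data. Intervals on reads cover counting error only.

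Mx1 and Mx2 and all lists were chosen with earlier results of these data known. Named genes were up to 4 per list and comparison with the smallest p, 6 interferon genes with their means, all genes within 500 kb, and the 5 most alike by r; those singled out in the text beyond this were chosen after their values were seen. The values of 1 interferon gene are not reported here. The search for an interferon response motif in promoters was not carried out.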

Additional observations from a re-analysis of the deposited data

Results flagged for a closer look

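Single libraries stood far from the rest of their strain by Dixon's test at the 95% level, which chance alone passes in about 1 of 20 groups; 9 of the 72 groups of libraries examined passed. Cast library 5 accounted for 6 of these: it had Mx1 at 4.76 CPM, Mx2 at 290 CPM, Irf7 at 9.49 CPM, Isg15 at 1.83 CPM, Ifit1 at 5.36 CPM and Usp18 at 5.42 CPM, each the highest of the 7 Cast libraries. Its interferon-stimulated gene score of 2.88 compared with 1.52 to 2.19 in the other Cast libraries, its macrophage marker sum of 102 CPM with 193 to 266 CPM, and its total was 28.04 M reads. Their part in the Mx levels was not tested. Mx2 was highest in its strain in WSB library 6 (8.94 CPM) and in AJ library 6 (13.7 CPM). PWK library 9 had the lowest score of its strain (2.28) and also its lowest Mx1 (1.7 CPM).

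The slope on Xist differed among the 8 strains for Mx1 (edgeR adjusted p = 0.00866) and for Mx2 (edgeR adjusted p = 4.27e-06). Mx1 fell by 2.19 log2 units over the Xist range of Cast and was 2.02 log2 units higher at the top of that of NOD. The Mx1 difference did not pass without Cast library 5 (adjusted p = 0.116).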

How the results depend on the processing

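Alternatives were other size factors, DESeq2, no filter on low counts, limma on the deposited log2 values, the replicate number as a block, Xist or the library number as a covariate, removal of Rn18s-rs5 and mitochondrial genes, and each library left out in turn, with a prior count of 0.5, medians, deposited values or a shorter score for levels and relations. Over these, 0 values reversed among 308 from whole settings and 2070 from leave-outs. A change of sign counted as a reversal only where the value was called in either fit. Uncalled values near 0 did change sign, such as Mx1 in Cast (-0.82 to 0.01 over leave-outs) and Mx2 in WSB (-0.18 to 0.15). Called changes of Mx1 and Mx2 stayed past the threshold, except Mx1 in NOD against B6 in 3 leave-outs (log2 fold change -1.47 to -1.05 over all of them) and the Mx1 slopes on Xist. Mx2 in AJ ranged from 0.57 to 0.91 and passed in 1 leave-out. The difference of the Mx1 slope among strains had adjusted p of 0.0056 to 0.116.

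Counts of listed interferon-stimulated genes moved where few were called. Higher genes numbered 0 in Cast under limma, the block or Xist (0 to 1 over leave-outs), 1 in WSB under the block, Xist or removal of Rn18s-rs5 and mitochondrial genes (0 to 1), and 2 in NZO under limma, the block or Xist (1 to 2). Lower genes in NZO numbered 5 under limma. The causes were not tested. With a score of 7 genes, the relation of the score in Cast had r = 0.8 with Mx1 and 0.8 with Mx2, and neither passed the exact permutation test. Mx1 with Mx2 in B6 (r = 0.84) then missed the threshold too, since the adjustment runs over all 20 relations.

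The replicate numbers did not meet the bar for pairing, r over 0.1 in every pair. Same-numbered libraries of different strains had deviations with r over 0.1 in 131 of 181 pairs (median 0.201, lowest -0.429, against a median of -0.07 between other numbers), and 7 of 60 libraries correlated best with their own number. The number went with Xist: except in PWK and for WSB library 9, lower numbers had high Xist and higher numbers low Xist. A block on the number thus partly stands for Xist, whose part in these values was not tested. With the number as a replicate block, genes called among strains numbered 14416 instead of 14518, and in Cast 9070 instead of 9224. Mx1 in WSB had 47 reads in all and Mx2 in NZO 5, so depth limits both.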

Other observations

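In 19 of 19 libraries with a non-whole Mx1 estimate, the Mx1 and Mx2 estimates together made a whole number of reads within 0.001. In NZO library 7 the estimates were 244 for Mx1 and 1.03 for Mx2. The deposited gene table and RefSeq on the same build give different Entrez identifiers for Mx1 (97243 in the deposited table).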
